A study of Rattus norvegicus with 12 samples.

Results

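The nutrient carrier genes described here belong to 10 solute carrier families, Slc1, Slc2, Slc3, Slc5, Slc6, Slc7, Slc16, Slc36, Slc38 and Slc43, whose proteins move sugars, amino acids, lactate and related small solutes through cell membranes. They were chosen by a rule on gene symbols that uses no measured value, although earlier results of these data were known when it was set. Of the 14300 genes that the arrays read through a transcript cluster of a single symbol, 86 matched. Each was read by 1 cluster. One of them, Slc7a6os, matches by spelling only: it lies beside Slc7a6, from which it takes its name, and encodes no carrier. It was kept in the counts, which leaves 85 carriers.

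Their RNA was measured on 12 Affymetrix arrays, 4 for each of 3 zones of cartilage dissected by hand from the proximal tibial epiphysis of 10-day-old Sprague-Dawley rats with no treatment named in the labels. The superficial zone (SZ) and the intermediate/deep zone (IDZ) are the outer and inner articular cartilage, and the resting zone (RZ) is the part of the growth plate nearest to the epiphysis. Each SZ sample came from 1 animal, whereas each IDZ and RZ sample pooled 2 animals, and an IDZ and an RZ sample that carry 1 number are of 1 pair of animals. The SZ animals are 4 of the 8 in these pools: SZ replicates 1 and 2 came from the pair of number 3 and SZ replicates 3 and 4 from that of number 4, so that the zones are partly paired. The comparisons ask how the zones of articular cartilage differ from each other and from the growth plate.

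Cartilage has no blood vessels of its own, so chondrocytes take glucose and amino acids from, and release lactate into, the fluid of their matrix. They live at low oxygen and draw most of their energy from glycolysis. Glucose enters through facilitators of the Slc2 family, and lactate leaves with protons through Slc16 carriers, which need a chaperone of the basigin family to reach the membrane. Amino acids enter through sodium-coupled carriers such as Slc1 and Slc38 and through exchangers of the Slc7 family, many of which work only as the light chain of a pair with an Slc3 heavy chain. A matrix rich in fixed charge also exposes chondrocytes to high osmolarity, against which cells accumulate taurine, inositol and other organic osmolytes.

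Values are log2 expression, zone means are given with the SD over 4 arrays, and a difference is the higher minus the lower zone on the log2 scale with its standard error (SE) from limma unless a direction is stated. A gene was called at an adjusted p under 0.05, the adjustment running over all 27342 clusters. Levels of single genes were not ranked against each other, since their probes differ, and the median level of all clusters served only to part genes of lower from those of higher signal. The SD of a carrier gene within a zone had a median of 0.28 in SZ, 0.11 in IDZ and 0.15 in RZ, and SZ replicate 4 gave the highest SZ value for 42 and the lowest for 33 of the 86 genes. That array also had the narrowest spread over all clusters, an interquartile range of 2.24 against 2.50 to 2.91 on the others. Calls of the carriers that were gained without it are given with the genes below. The zones share an estimate of the spread in the fit. Leaving out an SZ array therefore does not change a difference between IDZ and RZ, only its SE and p.

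The zones also differed in markers of other cells. All 8 endothelial markers measured were higher in SZ than in IDZ, and their summed linear signal was 5220 to 8230 on the SZ, 909 to 1260 on the IDZ and 777 to 963 on the RZ arrays. All 10 macrophage and myeloid markers were likewise higher in SZ (4330 to 8550 on the SZ, 1320 to 1470 on the IDZ and 1020 to 2170 on the RZ arrays). So were 9 of 10 fibrous tissue markers (42300 to 48500, 13000 to 16800 and 7780 to 11400) and 6 of 7 pericyte and smooth muscle markers (6300 to 8790, 2340 to 2750 and 2470 to 3210). The same held for 4 of 6 adipocyte markers (615 to 1280, 410 to 473 and 355 to 399). These markers of other cells include Cd34 and Emcn of endothelium and Lyz2 and Tyrobp of myeloid cells. Joint surface markers belong to SZ itself rather than to other cells, and 3 of 3 were higher there (7140 to 9270, 660 to 2240 and 170 to 262). Among them is Prg4, the superficial zone marker that guided the dissection. Cartilage matrix markers ran the other way: 11 of 12 were higher in IDZ than in SZ, with sums of 41900 to 51700 on the SZ, 81800 to 86100 on the IDZ and 77300 to 88000 on the RZ arrays. No marker has a true 0 on this scale. In bulk tissue, fewer cells of a type and less RNA per cell cannot be told apart, and the part of these other cells in the differences of the carriers was not tested.

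The markers of the remaining cell types did not share 1 direction. Between SZ and IDZ, none of 5 erythroid markers was called (sums of 1670 to 7430 in SZ, 1530 to 4610 in IDZ and 1670 to 7490 in RZ), 2 of 7 skeletal muscle markers were higher in IDZ (1090 to 2200, 1760 to 1990 and 3460 to 3760), and 1 of 6 neuronal and glial markers was higher in IDZ (679 to 813, 944 to 1100 and 1090 to 1200). Of 6 osteoblast and osteoclast markers 1 was higher in SZ and 1 in IDZ (1810 to 3050, 821 to 1030 and 865 to 2040). The one higher in SZ was Ctsk, the cathepsin of osteoclasts, by 2.21 ± 0.33 (adjusted p = 0.00013). Of 4 hypertrophic chondrocyte markers 1 was higher in SZ and 2 in IDZ (2510 to 5470, 1120 to 2010 and 1820 to 2680), and the one higher in SZ was the collagenase gene Mmp13, by 2.29 ± 0.49 (adjusted p = 0.003). The sums of both these lists were higher on all SZ than on all IDZ arrays. By zone mean Ctsk and Mmp13 were the brightest genes of their lists in both zones, and the sums largely follow them. The means of Sp7 (7.27 in SZ, 7.85 in IDZ), Col10a1 (6.99, 7.81) and Ihh (6.87, 7.29) were lower in SZ. Those of Ibsp (8.03, 6.94), Dmp1 (6.36, 5.90) and Bglap (6.80, 6.62) were higher, and those of Calcr (5.74, 5.78) and Alpl (8.71, 8.70) differed little.

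The carriers changed mostly between SZ and the inner cartilage, in both directions, and by less than 2-fold in most cases. Between SZ and IDZ 24 of 86 genes were called, 27.9%, against 23.0% of all clusters: 15 were higher in SZ (11.8% of all clusters) and 9 in IDZ (11.2%). At 2-fold or more, 3 were higher in SZ (2.96% of all clusters), Slc6a6, Slc7a8 and Slc43a2, and 2 in IDZ (0.977%), Slc1a1 and Slc2a1. Between SZ and RZ 22 were called, 25.6% against 21.1% of all clusters, of which 10 were higher in SZ (10.0%) and 12 in RZ (11.1%). Slc7a8 was the only one 2-fold higher in SZ (3.19% of all clusters), and Slc38a3, Slc7a11, Slc1a1 and Slc2a1 were 2-fold higher in RZ (1.35%). The share called was near that of all clusters in both comparisons.

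Between IDZ and RZ 11 genes were called, 12.8% against 6.73% of all clusters, and none differed by 2-fold. Of these, 9 were higher in RZ (3.95% of all clusters) and 2 in IDZ (2.78%), Slc1a3 and Slc7a2. With the pair of animals as a fixed block neither of the 2 genes and 6 of the 9 stayed called, with a random block Slc1a3 and 7 of the 9 did, and leaving out 1 array at a time gave counts of 0 to 3 and 6 to 13. In all 3 comparisons carriers above the median level of all clusters, 40 genes, were called more often. They were 16, 10 and 14 genes (40, 25 and 35%) for SZ and IDZ, IDZ and RZ, and SZ and RZ. All clusters above that level were also called more often (34.8, 11.2 and 32.6%).

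The values of the 4 arrays did not overlap between SZ and IDZ for 21 carrier genes, 13 higher in SZ and 8 in IDZ (22.3% of all clusters), between IDZ and RZ for 21, 5 and 16 (20.2%), and between SZ and RZ for 22, 10 and 12 (22.0%). The median difference over the 86 genes was -0.02 as SZ minus IDZ, 0.01 as IDZ minus RZ and 0.00 as SZ minus RZ, against -0.08, 0.03 and -0.03 over all clusters. Without SZ replicate 4 the count higher in IDZ than in SZ rose from 9 to 17 (23.5% of all clusters), that higher in SZ than in RZ from 10 to 16 (13.5%), and that higher in SZ than in IDZ from 15 to 22 (18.1%). Genes called with all arrays were among those called without it in all these counts.

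**Figure D1:**
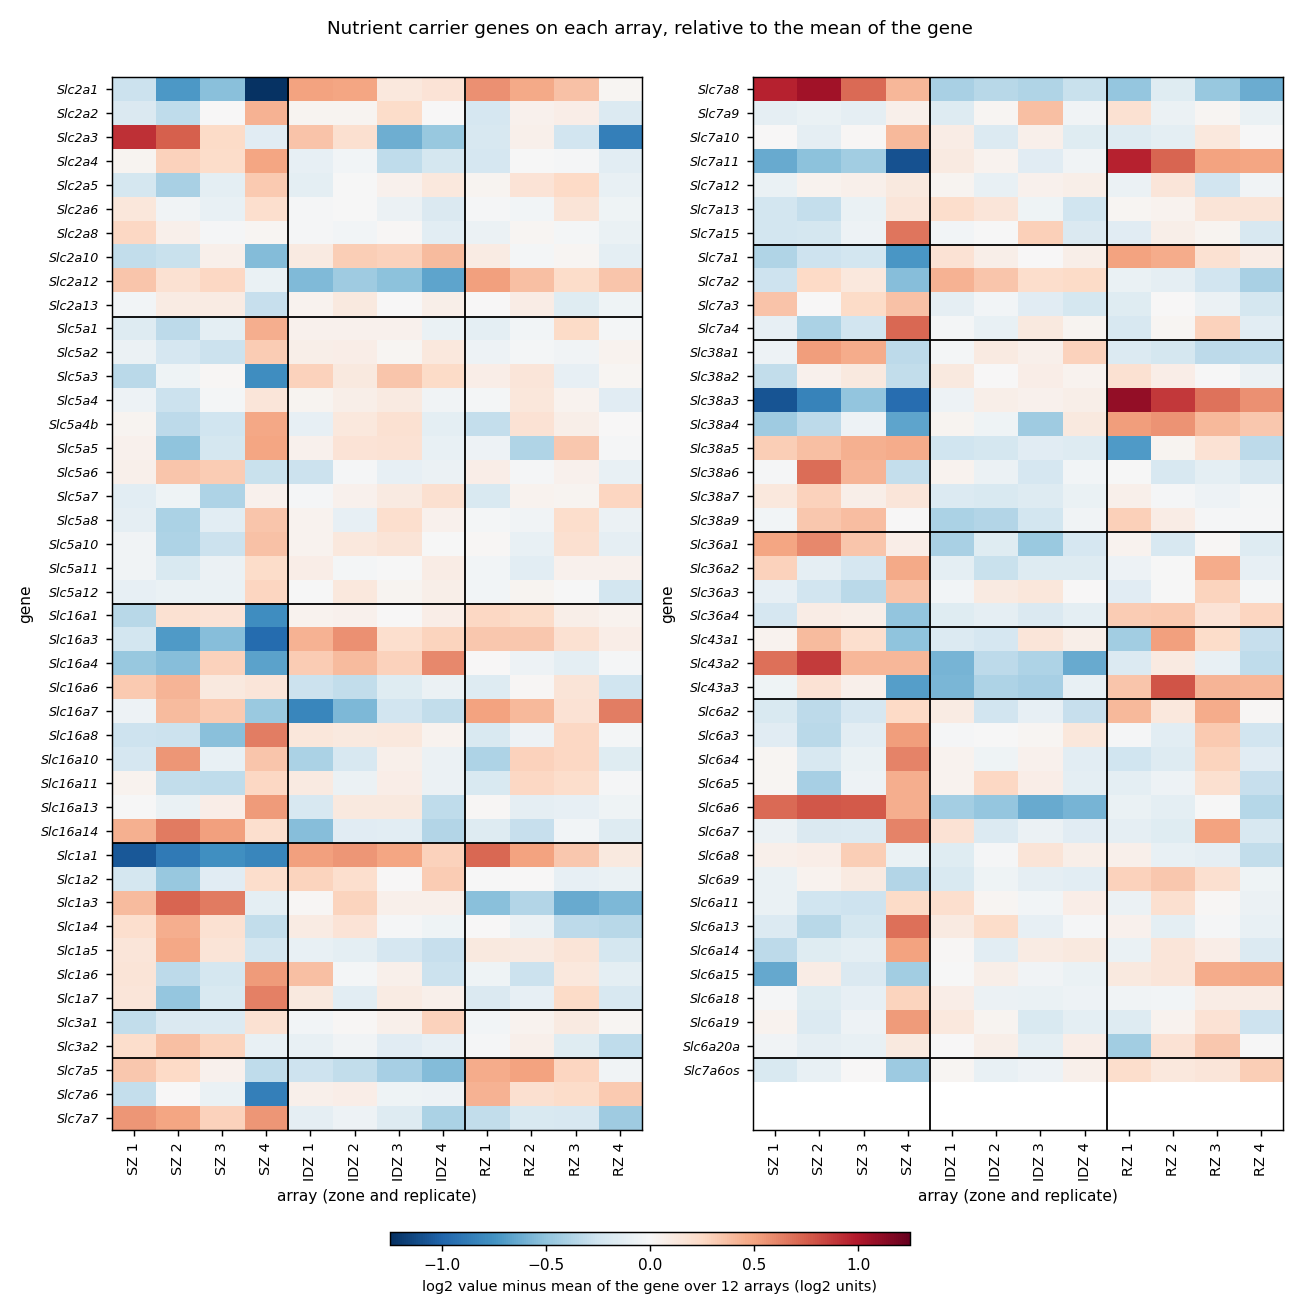
Log2 value of each of the 86 genes (rows, grouped by family between black lines) on each of the 12 arrays (columns, SZ, IDZ and RZ replicates 1 to 4), as the difference from the mean of that gene over all 12 arrays (red above, blue below). Slc1a1, Slc2a1 and Slc38a3 are low and Slc6a6, Slc7a8 and Slc43a2 high on the 4 SZ arrays, and SZ replicate 4 holds the highest SZ value for 42 genes.

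Of the hexose facilitators, Slc2a1, which encodes GLUT1, the glucose carrier of most cells, was lower in SZ than in both inner zones. It was expressed at 10.15, 9.71, 9.90 and 9.19 on SZ replicates 1 to 4, at 10.93, 10.92, 10.56 and 10.59 in IDZ and at 10.99, 10.90, 10.79 and 10.45 in RZ. All 4 SZ arrays lay below all IDZ and RZ arrays, and IDZ and RZ overlapped. The difference was 1.02 ± 0.18 between IDZ and SZ (2.02-fold, adjusted p = 0.00062) and 1.05 ± 0.18 between RZ and SZ (2.06-fold, adjusted p = 0.00045), and IDZ minus RZ was -0.03 with a 95% interval of -0.41 to 0.35. It stood close to 2-fold: with single arrays left out, SZ minus IDZ ranged from -1.15 to -0.83 and fell short of 2-fold without SZ replicate 4, IDZ replicate 1 or IDZ replicate 2, and SZ minus RZ ranged from -1.18 to -0.86 and fell short without SZ replicate 4 or RZ replicate 1.

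The 250 bases before the start of Slc2a1 (chr5:138002272-138002521, plus strand, GRCr8, RefSeq) are shown because hypoxia-inducible factors are known regulators of this gene. Capitals mark matches to ACGTG, the core of the hypoxia response element, found 1 time, 51 bases before the start, and to GGGCGG, the GC box, found 3 times. Both strands were searched, and 16.6% and 30.5% of 33469 promoter windows of this length hold these motifs.
Slc2a1: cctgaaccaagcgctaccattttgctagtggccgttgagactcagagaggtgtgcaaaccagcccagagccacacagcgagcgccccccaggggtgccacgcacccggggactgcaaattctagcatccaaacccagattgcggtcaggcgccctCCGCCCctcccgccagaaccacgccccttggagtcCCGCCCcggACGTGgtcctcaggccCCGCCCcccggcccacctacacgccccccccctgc

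Slc2a12, which encodes GLUT12, had another order, lowest in IDZ. It was expressed at 7.77, 7.62, 7.68 and 7.34 in SZ, at 6.87, 6.98, 6.91 and 6.77 in IDZ and at 7.94, 7.80, 7.66 and 7.77 in RZ, so that all IDZ arrays lay below all others. IDZ was lower than SZ by 0.72 ± 0.10 (1.65-fold, adjusted p = 0.0001) and lower than RZ by 0.91 ± 0.10 (1.88-fold, adjusted p = 5.1e-05), and SZ minus RZ was -0.19 (95% interval -0.41 to 0.03). Slc2a10, which encodes GLUT10, was highest in IDZ at 9.26 ± 0.11, against 8.72 ± 0.25 in SZ and 8.98 ± 0.10 in RZ, and its difference from SZ was 0.54 ± 0.12 (adjusted p = 0.0034).

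Slc2a4, the insulin-regulated GLUT4 of muscle and fat, was higher in SZ (6.48 ± 0.19) than in IDZ (6.05 ± 0.13, adjusted p = 0.008) and RZ (6.13 ± 0.09, adjusted p = 0.027). The call against RZ was lost with the pair of animals as a fixed block (adjusted p = 0.061) and without SZ replicate 2, RZ replicate 1 or RZ replicate 4 (adjusted p up to 0.09), and both were lost when arrays were centred on their upper quartile. Adipocyte marker sums were 615 to 1280 on the SZ and at most 473 on the other arrays, and their part in it was not tested.

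Slc2a3, the high-affinity GLUT3, spread widely in each zone, from 5.70 to 6.75 in SZ, 5.23 to 6.20 in IDZ and 4.99 to 5.90 in RZ. No difference was called: SZ minus IDZ was 0.57 (95% interval 0.01 to 1.13) and SZ minus RZ 0.75 (0.19 to 1.30). With the pair of animals as a fixed block it was higher in SZ than in IDZ by 0.90 (adjusted p = 0.0071) and than in RZ by 1.07 (adjusted p = 0.0021). That block sets SZ mostly against replicates 3 and 4 of the other zones. In IDZ these were 5.23 and 5.37, against 6.20 and 6.04 on replicates 1 and 2. Slc2a3 was also called in both comparisons without SZ replicate 4, by 0.76 (adjusted p = 0.025) and 0.94 (adjusted p = 0.011). The other 5 members of the Slc2 family, Slc2a2, Slc2a5, Slc2a6, Slc2a8 and Slc2a13, were called in no comparison. Without that array the fructose carrier Slc2a5 was higher in RZ than in SZ by 0.34 (adjusted p = 0.022). Its mean over all arrays, 5.92, lay below the median of all clusters (6.83).

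**Figure D2:**
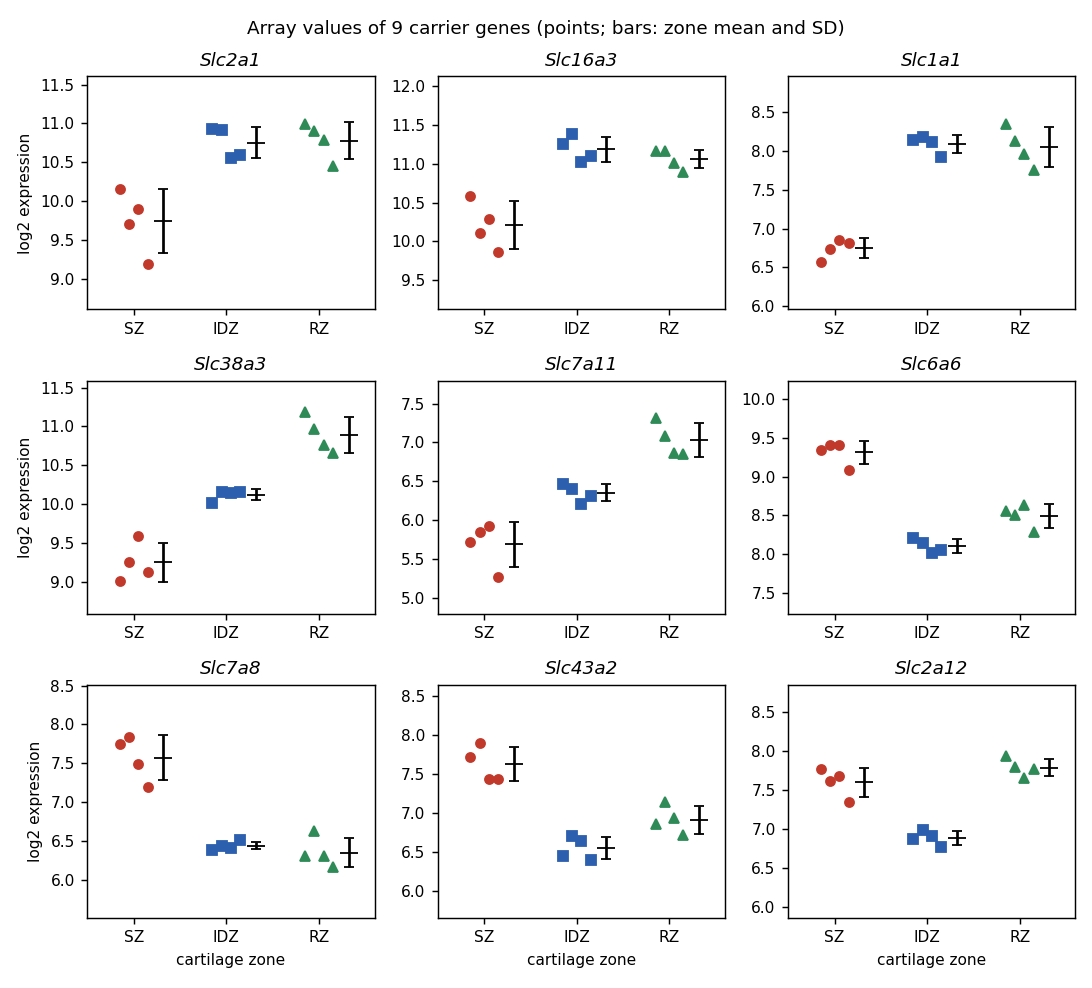
Log2 expression (y axis, each panel spanning 3 units) of 9 carrier genes on the 4 arrays of each zone (red circles SZ, blue squares IDZ, green triangles RZ), with the zone mean and SD as black bars. Slc2a1, Slc16a3 and Slc1a1 have low SZ arrays with IDZ and RZ overlapping, Slc38a3 and Slc7a11 step up from SZ to IDZ to RZ, and Slc2a12 is lowest in IDZ.

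Among the monocarboxylate carriers, Slc16a3, which encodes MCT4, the lactate exporter of glycolytic cells, was like Slc2a1 lower in SZ than in both inner zones. Its values were 10.59, 10.11, 10.29 and 9.86 in SZ, 11.26, 11.39, 11.03 and 11.10 in IDZ and 11.16, 11.16, 11.01 and 10.90 in RZ, with no SZ array reaching the others. IDZ exceeded SZ by 0.98 ± 0.14 (1.97-fold, adjusted p = 8.6e-05) and RZ exceeded SZ by 0.84 ± 0.14 (1.80-fold, adjusted p = 0.00029), whereas IDZ minus RZ was 0.14 (95% interval -0.16 to 0.43). The difference from SZ lay just under 2-fold for IDZ and further below it for RZ.

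Slc16a1, which encodes MCT1, was not called. Its SZ arrays ran from 8.46 to 9.43 around the narrow range of IDZ, 9.25 to 9.32, and SZ minus IDZ was -0.24 (95% interval -0.60 to 0.12). Slc16a7, the high-affinity lactate and pyruvate carrier MCT2, was expressed at 7.35 ± 0.40 in SZ, 6.82 ± 0.26 in IDZ and 7.74 ± 0.19 in RZ. RZ exceeded IDZ by 0.91 ± 0.18 (1.88-fold, adjusted p = 0.0055). The difference of SZ from IDZ, 0.53 ± 0.18 (adjusted p = 0.046), was not called with the pair of animals as a fixed block (adjusted p = 0.24), and 9 of the 12 arrays, all but SZ replicate 4, IDZ replicate 3 and RZ replicate 3, each ended it when left out (adjusted p up to 0.14).

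The remaining called members of the family have little known or other substrates. Slc16a4, an orphan carrier, was highest in IDZ (8.56 ± 0.15, against 7.82 ± 0.43 in SZ, adjusted p = 0.0035). Slc16a14, also an orphan, was higher in SZ than in IDZ by 0.75 ± 0.12 (adjusted p = 0.00021) and than in RZ by 0.61 ± 0.12 (adjusted p = 0.001). Slc16a6, a carrier of ketone bodies, was higher in SZ than in IDZ by 0.45 ± 0.11 (adjusted p = 0.0063). It was also higher in SZ than in RZ without SZ replicate 4, by 0.35 (adjusted p = 0.026). Slc16a8, Slc16a10, Slc16a11 and Slc16a13 were not called. Without that array Slc16a8 was lower in SZ than in IDZ by 0.46 (adjusted p = 0.0033) and than in RZ by 0.34 (adjusted p = 0.023). Its signal was low, with a mean over all arrays of 5.85, below the median of all clusters (6.83).

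The chaperone Bsg (basigin), partner of MCT1 and MCT4, was lower in SZ than in IDZ by 0.44 ± 0.11 (adjusted p = 0.0078) and than in RZ by 0.53 ± 0.11 (adjusted p = 0.002). Emb (embigin), partner of MCT2, had SZ values from 5.69 to 7.75 and was higher in RZ than in SZ by 1.29 ± 0.31 (adjusted p = 0.0067), and SZ minus IDZ was -0.72 ± 0.31 (adjusted p = 0.11). Emb was also called between SZ and IDZ without SZ replicate 2, and 1 of the chaperones between IDZ and RZ without SZ replicate 4.

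Of 17 glycolysis and lactate enzymes measured, 10 were higher in IDZ than in SZ and 2 in SZ, against 11.2% and 11.8% of all clusters, with a median SZ minus IDZ of -0.51 against -0.08 over all clusters. Aldoc (aldolase C) was higher in IDZ by 1.50 ± 0.12 (adjusted p = 3.6e-07), and Hk2 (hexokinase), which traps glucose after its entry, by 1.24 ± 0.11 (adjusted p = 1.2e-06). Ldhb, the lactate dehydrogenase subunit of oxidative tissues, ran the other way, higher in SZ by 1.01 ± 0.10 (adjusted p = 2.6e-06), as did the phosphofructokinase gene Pfkp by 0.79 ± 0.14 (adjusted p = 0.00075). Against RZ, in a comparison that shares the SZ arrays, 11 enzymes were higher in RZ (11.1% of all clusters) and 3 in SZ (10.0%), among them Aldoc (1.54 ± 0.12, adjusted p = 1.6e-07) and Hk2 (1.45 ± 0.11, adjusted p = 1.4e-07) in RZ and Ldhb (1.47 ± 0.10, adjusted p = 3.1e-08) in SZ. Between IDZ and RZ only Ldhb was called (higher in IDZ by 0.47 ± 0.10, adjusted p = 0.0096), and without SZ replicate 4 there were 2.

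Of the glutamate and neutral amino acid carriers of the Slc1 family, Slc1a1, which encodes EAAT3, a high-affinity carrier of glutamate, aspartate and cysteine, differed most. It was expressed at 6.57, 6.74, 6.86 and 6.81 in SZ, at 8.14, 8.18, 8.12 and 7.92 in IDZ and at 8.35, 8.13, 7.96 and 7.75 in RZ. The SZ arrays lay below all others by a wide gap, and IDZ and RZ overlapped. IDZ exceeded SZ by 1.35 ± 0.12 (2.54-fold, adjusted p = 1.1e-06) and RZ exceeded SZ by 1.30 ± 0.12 (2.46-fold, adjusted p = 1.1e-06), and IDZ minus RZ was 0.05 (95% interval -0.21 to 0.31). It stayed above 2-fold with any single array left out (SZ minus IDZ -1.40 to -1.29).

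Slc1a3, which encodes the glutamate carrier EAAT1, was lowest in RZ. It was expressed at 7.58 ± 0.38 in SZ, 7.28 ± 0.12 in IDZ and 6.66 ± 0.11 in RZ, and SZ exceeded RZ by 0.93 ± 0.15 (1.90-fold, adjusted p = 0.0003). SZ and IDZ overlapped, and SZ minus IDZ, 0.30 ± 0.15 (adjusted p = 0.18), was not called, though it was without SZ replicate 4 (0.48, adjusted p = 0.0017). The difference of IDZ from RZ, 0.63 ± 0.15 (adjusted p = 0.022), was not called with the pair of animals as a fixed block (adjusted p = 0.053) and without IDZ replicates 2 or 3 or RZ replicates 1, 3 or 4 (adjusted p up to 0.082).

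The neutral carriers ASCT1 (Slc1a4) and ASCT2 (Slc1a5), the latter a main route of glutamine into proliferating cells, were not called. Slc1a4 was expressed at 8.99 ± 0.32 in SZ, 8.90 ± 0.10 in IDZ and 8.66 ± 0.18 in RZ, with SZ minus RZ at 0.33 (95% interval 0.02 to 0.63). Slc1a5 was expressed at 8.03 ± 0.30, 7.71 ± 0.09 and 7.93 ± 0.18, with SZ minus IDZ at 0.32 (95% interval 0.04 to 0.61). Without SZ replicate 4, Slc1a5 was higher in SZ than in IDZ by 0.45 (adjusted p = 0.0056) and Slc1a4 higher in SZ than in RZ by 0.47 (adjusted p = 0.0035). Slc1a2, Slc1a6 and Slc1a7 were not called, and without that array Slc1a2 was lower in SZ than in IDZ by 0.48 (adjusted p = 0.0016). The mean of Slc1a2 over all arrays, 5.88, lay below the median of all clusters (6.83).

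Slc7a11 encodes xCT, which exports glutamate in exchange for cystine, the source of cysteine for glutathione. It was called in all 3 comparisons and rose stepwise from SZ to IDZ to RZ. The values were 5.72, 5.84, 5.92 and 5.27 in SZ, 6.47, 6.40, 6.21 and 6.31 in IDZ and 7.32, 7.08, 6.86 and 6.85 in RZ, with no overlap between any zones. IDZ exceeded SZ by 0.66 ± 0.14 (1.58-fold, adjusted p = 0.0029), RZ exceeded IDZ by 0.68 ± 0.14 (1.60-fold, adjusted p = 0.0085), and RZ exceeded SZ by 1.34 ± 0.14 (2.53-fold, adjusted p = 3.9e-06).

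The enzymes downstream of these carriers did not share 1 direction. Of 8 genes of glutamine, glutamate and glutathione metabolism measured, 3 were higher in SZ (11.8% of all clusters) and 1 in IDZ (11.2%), with a median SZ minus IDZ of 0.32 against -0.08 over all clusters. Gclm and Gclc, the subunits of the ligase that starts glutathione synthesis, were higher in SZ than in IDZ by 0.96 ± 0.20 (adjusted p = 0.0023) and 0.45 ± 0.12 (adjusted p = 0.011), and Gclm was also higher in RZ than in IDZ by 0.78 ± 0.20 (adjusted p = 0.03). Glud1 (glutamate dehydrogenase) was higher in SZ than in IDZ by 1.37 ± 0.13 (adjusted p = 2e-06) and than in RZ by 1.49 ± 0.13 (adjusted p = 5.9e-07), and Gpt2 (mitochondrial alanine aminotransferase) lower by 1.39 ± 0.11 (adjusted p = 3e-07) and 1.58 ± 0.11 (adjusted p = 4e-08). Got2 (mitochondrial aspartate aminotransferase) was higher in RZ than in IDZ by 0.67 ± 0.13 (adjusted p = 0.0049). Without SZ replicate 4 the count between SZ and IDZ rose from 4 to 7 of 8. Calls over all clusters rose as well, to 18.1% higher in SZ and 23.5% higher in IDZ. The 2 called between IDZ and RZ fell to 1 without IDZ replicates 1, 2 or 3 or RZ replicates 2, 3 or 4.

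The heavy chain Slc3a2 (4F2hc), partner of several Slc7 exchangers, was not called. Its values ran from 10.13 to 10.60 in SZ, 10.08 to 10.18 in IDZ and 9.90 to 10.28 in RZ, and SZ minus IDZ was 0.29 (95% interval 0.05 to 0.53) and SZ minus RZ 0.30 (0.06 to 0.54). Without SZ replicate 4 it was called as higher in SZ in both, by 0.39 (adjusted p = 0.0049) and 0.40 (adjusted p = 0.005). Slc3a1, the heavy chain known from kidney and gut, was not called either. Its mean over the 12 arrays, 5.28, lay among the lowest 25% of all clusters (under 5.57). Without SZ replicate 4 it was called in the other direction. It was then lower in SZ than in IDZ by 0.30 (adjusted p = 0.014) and than in RZ by 0.25 (adjusted p = 0.044). Their light chains differed by zone and not in 1 direction.

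Slc7a8, which encodes LAT2, an exchanger of neutral amino acids, was the light chain with the largest difference of SZ above the other zones. It was expressed at 7.75, 7.84, 7.49 and 7.20 in SZ, at 6.38, 6.44, 6.41 and 6.51 in IDZ and at 6.30, 6.63, 6.31 and 6.17 in RZ, with the SZ arrays above all others. SZ exceeded IDZ by 1.14 ± 0.13 (2.20-fold, adjusted p = 1.5e-05) and RZ by 1.22 ± 0.13 (2.33-fold, adjusted p = 5.6e-06), above 2-fold with any single array left out. Slc7a7 (y+LAT1), which exports cationic amino acids and is known from macrophages as well as gut and kidney, was likewise higher in SZ, by 0.65 ± 0.10 than in IDZ (adjusted p = 0.00021) and by 0.76 ± 0.10 than in RZ (adjusted p = 4.6e-05). The macrophage marker sum was 4330 to 8550 on the SZ and at most 2170 on the other arrays, and its part in these differences was not tested.

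Slc7a5, which encodes LAT1, the carrier of leucine and other large neutral amino acids, was lowest in IDZ. Its values were 9.60, 9.51, 9.32 and 8.95 in SZ, 9.00, 8.96, 8.85 and 8.72 in IDZ and 9.73, 9.77, 9.53 and 9.22 in RZ, and RZ did not overlap with IDZ. RZ exceeded IDZ by 0.68 ± 0.15 (1.60-fold, adjusted p = 0.012), a call lost with plain one-way contrasts (adjusted p = 0.053). SZ exceeded IDZ by 0.46 ± 0.15 (adjusted p = 0.035), a call lost with plain contrasts too (adjusted p = 0.08), with the pair of animals as a random block (adjusted p = 0.095) and without SZ replicates 1, 2 or 3 or IDZ replicates 2, 3 or 4 (adjusted p up to 0.11). Slc7a6 (y+LAT2) was called between SZ and RZ alone, higher in RZ by 0.60 ± 0.15 (adjusted p = 0.0082, and 0.065 with the pair of animals as a fixed block). Without SZ replicate 4 it was also called as higher in RZ than in IDZ (adjusted p = 0.037), at an unchanged difference of 0.29. Its neighbour Slc7a6os was also higher in RZ than in SZ, by 0.39 ± 0.10 (adjusted p = 0.012, and 0.056 with that block).

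Slc43a1 and Slc43a2 encode carriers of large neutral amino acids that need no heavy chain. Slc43a2 (LAT4) was expressed at 7.72, 7.90, 7.44 and 7.44 in SZ, at 6.45, 6.70, 6.64 and 6.40 in IDZ and at 6.86, 7.14, 6.94 and 6.71 in RZ. Each SZ array lay above, and each IDZ array below, all others. SZ exceeded IDZ by 1.08 ± 0.13 (2.11-fold, adjusted p = 1.4e-05) and RZ by 0.71 ± 0.13 (1.64-fold, adjusted p = 0.00058), and without SZ replicate 2 the first difference was 0.99, just under 2-fold. IDZ minus RZ was -0.36 (95% interval -0.63 to -0.10, adjusted p = 0.11, and 0.048 without SZ replicate 4). Slc43a3, a purine nucleobase carrier, was highest in RZ, by 0.86 ± 0.17 over IDZ (adjusted p = 0.0054) and 0.61 ± 0.17 over SZ (adjusted p = 0.016). The latter was lost with plain contrasts (adjusted p = 0.056), with the pair of animals as a fixed block (adjusted p = 0.058) and without RZ replicate 2 (adjusted p = 0.057). It was also higher in SZ than in IDZ without SZ replicate 4, by 0.43 (adjusted p = 0.013). Slc43a1 was not called.

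The windows of 250 bases before the start of Slc7a11 (chr2:136668265-136668514, minus strand), Slc7a8 (chr15:32212716-32212965, minus strand) and Slc43a2 (chr10:60874588-60874837, plus strand), from RefSeq on GRCr8 and written along the gene, are shown side by side as those of amino acid carriers lowest in SZ (Slc7a11) or highest there (Slc7a8 and Slc43a2). Beside ACGTG and GGGCGG, they were searched on both strands for TGACNNNGC, the core of the element bound by NRF2, a known regulator of Slc7a11, and for TATAAA, which 10.1% and 12.9% of 33469 windows hold. The Slc7a11 window held none of the 4 motifs, the Slc7a8 window 1 GGGCGG and the Slc43a2 window 3, of which a pair overlaps (capitals).
Slc7a11: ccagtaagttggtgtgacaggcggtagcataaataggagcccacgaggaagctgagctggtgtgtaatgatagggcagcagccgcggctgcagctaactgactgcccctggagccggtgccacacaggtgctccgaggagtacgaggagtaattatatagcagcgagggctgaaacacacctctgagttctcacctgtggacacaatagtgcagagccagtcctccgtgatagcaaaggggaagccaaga
Slc7a8: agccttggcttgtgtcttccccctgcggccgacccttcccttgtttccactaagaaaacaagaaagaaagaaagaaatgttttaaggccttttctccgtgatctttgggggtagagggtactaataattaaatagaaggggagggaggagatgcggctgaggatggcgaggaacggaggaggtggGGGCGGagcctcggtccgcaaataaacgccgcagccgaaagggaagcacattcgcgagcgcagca
Slc43a2: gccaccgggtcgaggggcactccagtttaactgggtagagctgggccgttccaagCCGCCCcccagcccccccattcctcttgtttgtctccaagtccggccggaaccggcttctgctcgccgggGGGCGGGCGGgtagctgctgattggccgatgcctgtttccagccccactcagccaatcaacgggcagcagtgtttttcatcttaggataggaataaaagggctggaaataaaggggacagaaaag

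**Figure D3:**
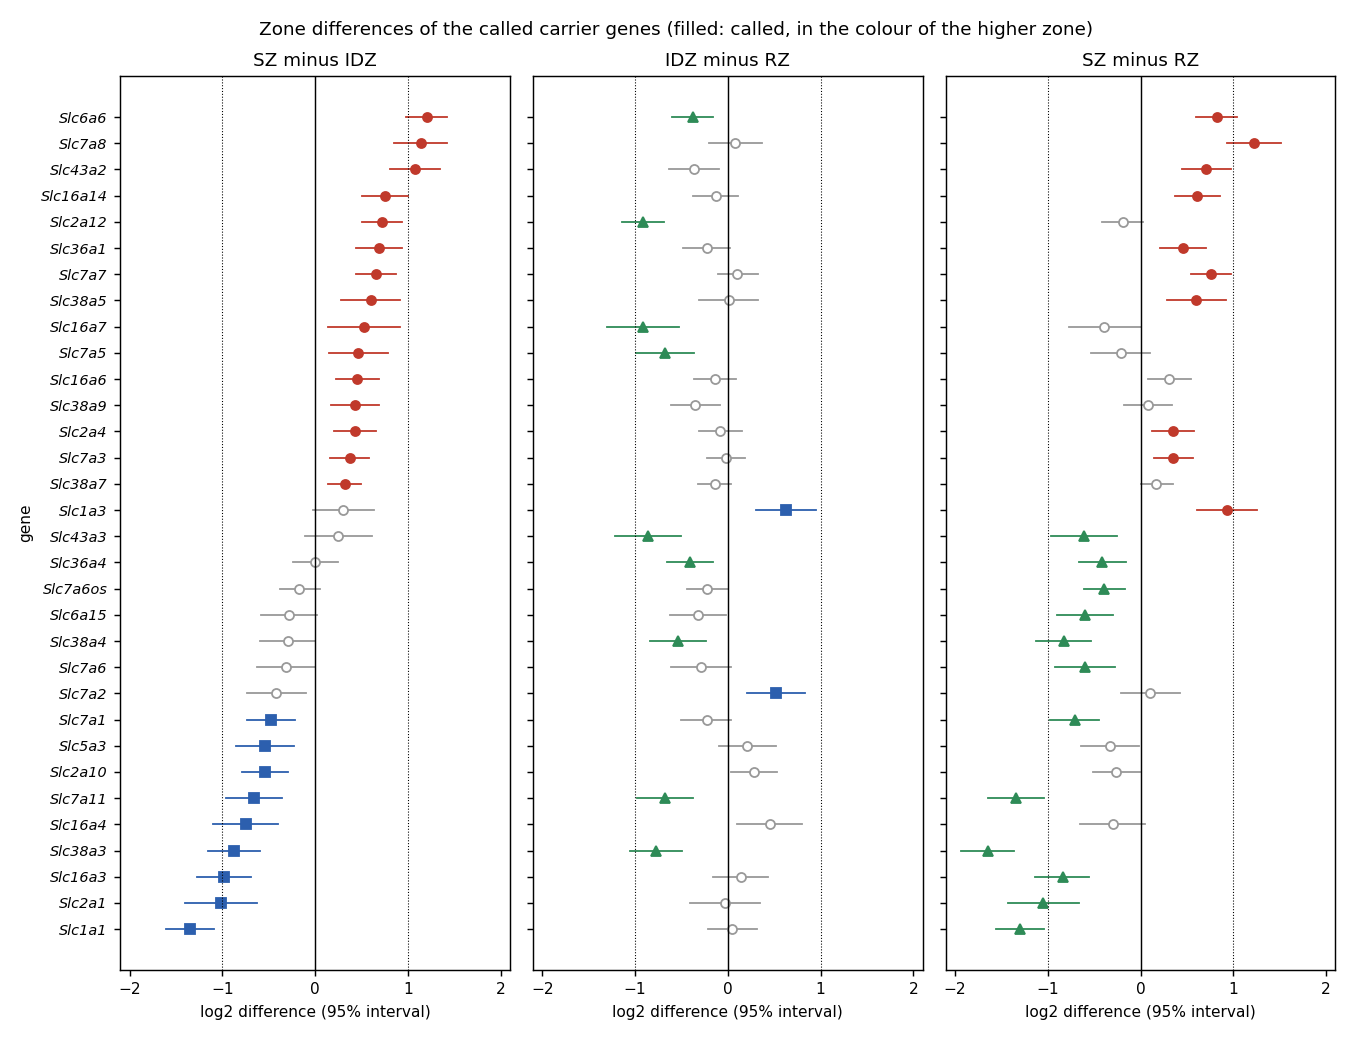
Log2 difference (x axis, with the 95% interval as a line) between SZ and IDZ, IDZ and RZ, and SZ and RZ for the 32 carrier genes called in at least 1 comparison (rows, ordered by SZ minus IDZ). Filled marks are called, in the colour and shape of the higher zone (red circles SZ, blue squares IDZ, green triangles RZ), open grey circles are not, and dotted lines stand at 2-fold, which Slc6a6, Slc7a8 and Slc43a2 pass to the right and Slc2a1 and Slc1a1 to the left in the first panel.

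Slc38a3 encodes SNAT3, which moves glutamine, histidine and asparagine with sodium against protons, and it had the largest difference of all 86 genes in any comparison. Its values were 9.01, 9.25, 9.59 and 9.13 in SZ, 10.02, 10.16, 10.14 and 10.16 in IDZ and 11.18, 10.97, 10.76 and 10.66 in RZ, with no overlap between any zones. RZ exceeded SZ by 1.64 ± 0.13 (3.13-fold, adjusted p = 2.1e-07), IDZ exceeded SZ by 0.88 ± 0.13 (1.83-fold, adjusted p = 0.00017) and RZ exceeded IDZ by 0.77 ± 0.13 (1.70-fold, adjusted p = 0.002). In a test of whether a difference exceeds 2-fold, its difference of SZ from RZ was the only one of the 86 genes to pass in any comparison (adjusted p = 0.0064).

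Slc38a4, a system A carrier of small neutral amino acids, was likewise highest in RZ, at 6.89 ± 0.25 in SZ, 7.18 ± 0.25 in IDZ and 7.72 ± 0.10 in RZ, and SZ minus IDZ was -0.29 ± 0.14 (adjusted p = 0.16). RZ exceeded SZ by 0.83 ± 0.14 (adjusted p = 0.00036). Its difference from IDZ, 0.54 ± 0.14 (adjusted p = 0.029), was not called with the pair of animals as a fixed block (adjusted p = 0.066), and was lost without IDZ replicates 2 or 3 or RZ replicates 1, 2 or 3 (adjusted p up to 0.10).

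The widely expressed system A carriers Slc38a1 and Slc38a2, the latter induced when amino acids are short, were not called. Slc38a1 was expressed at 9.42 ± 0.41 in SZ, 9.39 ± 0.14 in IDZ and 9.02 ± 0.08 in RZ, with SZ minus RZ at 0.40 (95% interval 0.06 to 0.74), and it was called there without SZ replicate 4 (0.56, adjusted p = 0.0037). Slc38a2 was expressed at 10.48 ± 0.23, 10.65 ± 0.05 and 10.64 ± 0.11, with SZ minus IDZ at -0.17 (95% interval -0.41 to 0.06).

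Some members are known from lysosomal membranes. Slc38a9, the arginine sensor of the lysosome, was higher in SZ than in IDZ by 0.43 ± 0.12 (adjusted p = 0.018) and Slc38a7, which exports glutamine from lysosomes, by 0.32 ± 0.08 (adjusted p = 0.0097). With the pair of animals as a fixed block neither was called (adjusted p = 0.095 and 0.062), and Slc38a9 was not called without SZ replicates 2 or 3 or IDZ replicates 1 or 2 (adjusted p up to 0.059). Slc36a1, the proton-coupled exporter of small amino acids from lysosomes, was higher in SZ than in IDZ by 0.69 ± 0.12 (1.61-fold, adjusted p = 0.00049) and than in RZ by 0.46 ± 0.12 (adjusted p = 0.011).

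Slc36a4, a carrier of proline and tryptophan, was highest in RZ (9.18 ± 0.08, against 8.77 ± 0.27 in SZ and 8.77 ± 0.03 in IDZ). Both of its calls, at adjusted p = 0.019 against SZ and 0.047 against IDZ, were lost with the pair of animals as a fixed block (adjusted p = 0.13 and 0.12). That against SZ was also lost without SZ replicate 1 or RZ replicates 1 or 2 (adjusted p up to 0.057), and that against IDZ without any of 9 arrays, all but SZ replicates 2, 3 and 4 (up to 0.12). Slc38a5, a system N carrier, was higher in SZ than in IDZ by 0.60 ± 0.15 (adjusted p = 0.0081) and than in RZ by 0.60 ± 0.15 (adjusted p = 0.0076). Its signal was low, at 5.78 ± 0.07 in SZ, 5.19 ± 0.05 in IDZ and 5.18 ± 0.39 in RZ. With a mean of 5.38 over the 12 arrays, it was the only called gene among the lowest 25% of all clusters (under 5.57). Slc38a6, Slc36a2 and Slc36a3 were not called. Without SZ replicate 4, Slc38a6 was higher in SZ than in IDZ by 0.44 (adjusted p = 0.018) and than in RZ by 0.50 (adjusted p = 0.01), and Slc36a3 was lower in SZ than in IDZ by 0.28 (adjusted p = 0.037). Their means over the 12 arrays, 6.73 for Slc38a6 and 5.84 for Slc36a3, lay below the median of all clusters (6.83).

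Of 15 genes measured that sense amino acids and pass the signal to mTORC1, 4 were called between SZ and IDZ, 2 in each direction, against 23.0% of all clusters, and 5 between SZ and RZ, 4 of them higher in RZ, against 21.1%. Lamtor4, of the lysosomal scaffold, was higher in SZ than in IDZ by 0.75 ± 0.11 (adjusted p = 0.00015) and Rragc, of the Rag GTPases, by 0.49 ± 0.14 (adjusted p = 0.021). Nprl3, of the complex that restrains mTORC1, was lower in SZ than in IDZ by 0.50 ± 0.11 (adjusted p = 0.0026) and Castor2, related to an arginine sensor, by 0.46 ± 0.13 (adjusted p = 0.02). The count between SZ and IDZ was 8 without SZ replicate 4 and 2 without IDZ replicate 2, and that between SZ and RZ rose from 5 to 8 without SZ replicate 4. None was called between IDZ and RZ, and 2 were without SZ replicate 4. Without that array 18.1% of all clusters were called higher in SZ than in IDZ and 23.5% higher in IDZ. Between SZ and RZ 13.5% were then called higher in SZ and 15.3% in RZ, and between IDZ and RZ 5.75% in IDZ and 8.61% in RZ.

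The amino acid response genes, targets of ATF4, a factor that also induces several of these carriers, were called in both directions or not at all. Of 18 measured, 6 were higher in IDZ than in SZ and 2 in SZ (11.2% and 11.8% of all clusters), with a median SZ minus IDZ of -0.17 against -0.08 over all clusters. The 10 not called include Asns (SZ minus IDZ -0.12), Chac1 (-0.20), Trib3 (-0.23), Ddit3 (-0.13), Psat1 (-0.10) and Phgdh (-0.16). Vldlr was higher in IDZ by 1.29 ± 0.19 (adjusted p = 0.00015) and Stc2 by 1.05 ± 0.19 (adjusted p = 0.00065), whereas Nupr1 was higher in SZ by 1.48 ± 0.16 (adjusted p = 6.6e-06) and Atf3 by 1.02 ± 0.13 (adjusted p = 2.5e-05). Atf4 itself differed by 0.00 ± 0.09. Between SZ and RZ 6 were higher in RZ and 2 in SZ (11.1% and 10.0% of all clusters), 5 in all without RZ replicate 2, and between IDZ and RZ the 2 called, Nupr1 and Stc2 (6.73% of all clusters), fell to 1 without any of IDZ replicates 1, 2 and 3 and RZ replicates 3 and 4.

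The cationic amino acid carriers bring arginine, lysine and ornithine into cells. Slc7a1 (CAT1), the widely expressed member, was lowest in SZ, at 8.73 ± 0.23 against 9.21 ± 0.08 in IDZ and 9.44 ± 0.20 in RZ, and the latter zones overlapped (IDZ minus RZ -0.23, adjusted p = 0.33). RZ exceeded SZ by 0.71 ± 0.12 (1.64-fold, adjusted p = 0.00049) and IDZ exceeded SZ by 0.48 ± 0.12 (adjusted p = 0.01, and 0.099 with the pair of animals as a fixed block). Slc7a2 (CAT2) was highest in IDZ, 10.08 ± 0.10 against 9.67 ± 0.36 in SZ and 9.56 ± 0.14 in RZ. Its difference from RZ, 0.52 ± 0.15 (adjusted p = 0.047), was not called with the pair of animals as a fixed or random block (adjusted p = 0.09 and 0.071) or without any of 9 arrays, all but SZ replicates 2, 3 and 4 (up to 0.14), and with the random block it was called against SZ instead (adjusted p = 0.042).

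Slc7a3 (CAT3), known mainly from brain, was higher in SZ than in IDZ by 0.37 ± 0.10 (adjusted p = 0.013) and than in RZ by 0.35 ± 0.10 (adjusted p = 0.018). Both calls were lost when arrays were centred on their upper quartile, and that against RZ without SZ replicate 1, RZ replicate 1 or RZ replicate 4 (adjusted p up to 0.063). Slc7a4 was not called.

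Of the osmolyte carriers, Slc6a6 (TauT), which takes up taurine, was higher in SZ on every array. Its values were 9.34, 9.41, 9.40 and 9.09 in SZ, 8.21, 8.15, 8.01 and 8.05 in IDZ and 8.55, 8.51, 8.63 and 8.28 in RZ, and no zones overlapped. SZ exceeded IDZ by 1.20 ± 0.10 (2.30-fold, adjusted p = 6.5e-07) and RZ by 0.82 ± 0.10 (1.76-fold, adjusted p = 2.5e-05), the former above 2-fold with any single array left out. RZ exceeded IDZ by 0.38 ± 0.10 (adjusted p = 0.036), a call lost with the pair of animals as a fixed or random block (adjusted p = 0.07 and 0.068) and without any of 8 arrays, all but SZ replicates 2, 3 and 4 and RZ replicate 4 (up to 0.12).

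Slc5a3 (SMIT1), which takes up myo-inositol, ran against Slc6a6. It was expressed at 7.35 ± 0.37 in SZ, 7.89 ± 0.10 in IDZ and 7.68 ± 0.11 in RZ, lower in SZ than in IDZ by 0.54 ± 0.15 (adjusted p = 0.014, and 0.087 with the pair of animals as a fixed block). Slc6a8, the creatine carrier, was not called, at 10.89 ± 0.16, 10.81 ± 0.13 and 10.68 ± 0.15, with SZ minus RZ at 0.20 (95% interval -0.03 to 0.44). The betaine carrier Slc6a12 was not analysed here.

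The window before Slc6a6 (chr4:125752252-125752501, plus strand, GRCr8, RefSeq) is shown as that of the osmolyte carrier with the largest difference. It held 1 match to TGACNNNGC, 101 bases before the start, 1 TATAAA, 79 bases before it, and 3 GGGCGG (capitals), and no ACGTG.
Slc6a6: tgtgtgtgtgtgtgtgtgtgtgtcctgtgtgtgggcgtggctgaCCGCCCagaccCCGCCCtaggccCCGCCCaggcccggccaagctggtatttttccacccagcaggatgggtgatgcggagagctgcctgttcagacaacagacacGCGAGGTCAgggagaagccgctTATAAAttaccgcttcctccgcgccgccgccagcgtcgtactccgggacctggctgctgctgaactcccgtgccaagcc
No sequence is given for Slc1a1 and Slc38a3.

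Of 4 partners of the response to high tonicity measured, 2 were higher in SZ (11.8% of all clusters) and 1 in IDZ (11.2%), with a median SZ minus IDZ of 0.34 against -0.08 over all clusters. Nfat5, the factor that induces Slc6a6 and Slc5a3 under hypertonic stress, was lower in SZ than in IDZ by 0.62 ± 0.10 (adjusted p = 0.00026) and than in RZ by 0.90 ± 0.10 (adjusted p = 6.2e-06). The chaperone gene Hspa4l was higher in SZ than in IDZ by 0.37 ± 0.10 (adjusted p = 0.014). Aqp1, a water channel also known from endothelium, was higher in SZ than in IDZ by 2.94 ± 0.23 (adjusted p = 2.9e-07) and than in RZ by 3.62 ± 0.23 (adjusted p = 1.7e-08), beside endothelial marker sums of 5220 to 8230 on the SZ arrays and at most 1260 on the others, whose part in it was not tested. Akr1b1, which makes sorbitol, was not called. Between IDZ and RZ none was called, and 1 was without SZ replicate 4 or RZ replicate 2.

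**Figure D4:**
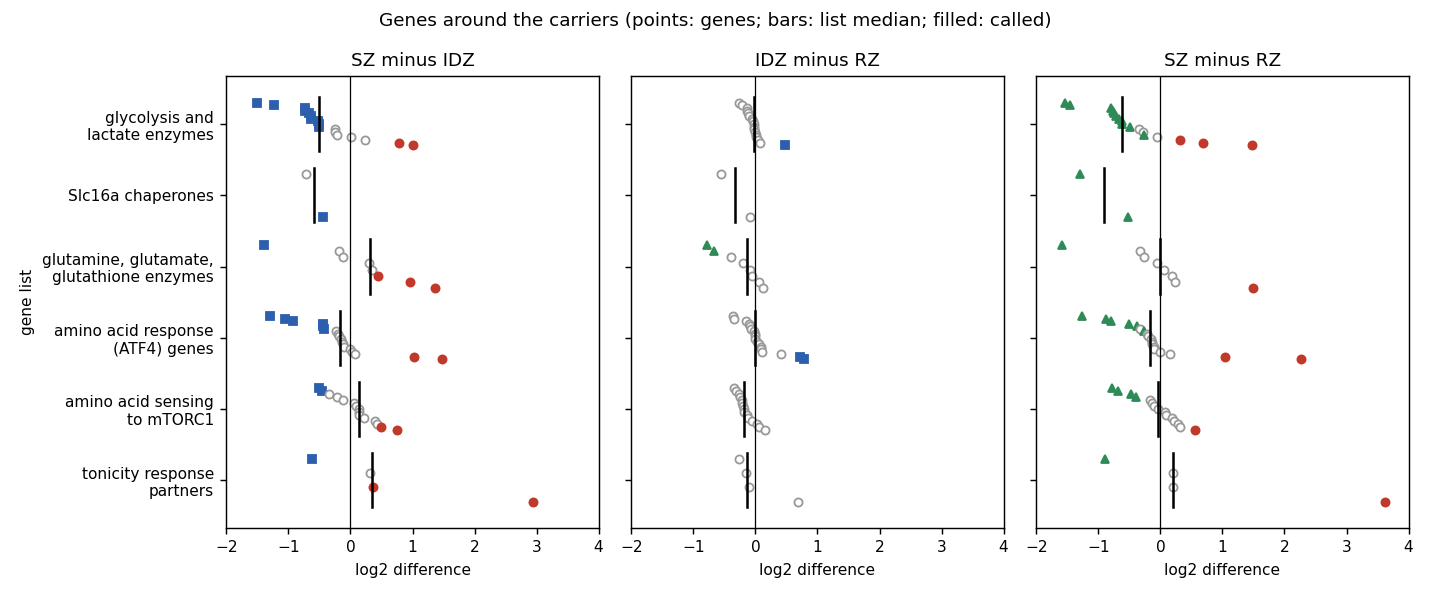
Log2 difference (x axis) between SZ and IDZ, IDZ and RZ, and SZ and RZ of each measured gene of 6 lists around the carriers (points, filled where called in the colour and shape of the higher zone), with list medians as black bars. Most glycolysis genes lie left of 0 against SZ, with a median SZ minus IDZ of -0.51, both chaperones lie left of 0 in all panels, and the other 4 lists hold genes on both sides of 0 between SZ and IDZ.

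The carriers that were not called were mostly of low signal. Over all comparisons 54 of the 86 genes were called in none, and 37 of these lay at or below the median level of all clusters, against 9 of the 32 called. They include 11 of the 12 Slc5 genes, among them the sodium-glucose carriers Slc5a1 and Slc5a2 of gut and kidney, and 13 of the 15 Slc6 genes, among them the carriers of noradrenaline (Slc6a2), dopamine (Slc6a3), serotonin (Slc6a4) and GABA (Slc6a11 and Slc6a13). Slc6a15, a carrier of branched-chain amino acids and proline, was called beside Slc6a6, higher in RZ than in SZ by 0.60 ± 0.14 (adjusted p = 0.0055). Slc5a6, a carrier of vitamins, was higher in SZ than in IDZ by 0.36 without SZ replicate 4 (adjusted p = 0.0077), and there Slc5a2, Slc5a10, Slc6a11 and Slc6a13 were lower in SZ than in IDZ by 0.26 to 0.32 (adjusted p 0.013 to 0.034). Without it, Slc6a2 and the glycine carrier Slc6a9 were also called as higher in RZ than in IDZ, at unchanged differences of 0.39 (adjusted p = 0.031) and 0.32 (adjusted p = 0.03). Slc6a2 was then also higher in RZ than in SZ by 0.50 (adjusted p = 0.0058). The differences of the 54 genes ran from -0.35 (Slc1a2) to 0.57 (Slc2a3) as SZ minus IDZ, from -0.39 (Slc6a2) to 0.36 (Slc38a1) as IDZ minus RZ and from -0.37 (Slc6a2) to 0.75 (Slc2a3) as SZ minus RZ. Their 95% intervals lay within 2-fold for 53 of 54, 54 of 54 and 53 of 54 genes.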

How the data were processed

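The platform was the Affymetrix Rat Gene 1.0 ST array, with 4 arrays for each of SZ, IDZ and RZ. The deposited log2 values were made by the authors in Partek Genomics Suite 6.6 by robust multi-array average, which adjusts background, quantile normalizes and summarizes probes to 1 value per transcript cluster. They cannot show absolute amounts, and quantile normalization is meant to make arrays alike in distribution. The deposited values still differed in spread, with an interquartile range from 2.24 on SZ replicate 4 to 2.91 on SZ replicate 2.

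A mean for each zone was fitted over the 12 arrays with limma 3.58.1 in R 4.3.3, pairs of zones were contrasted with moderated variances, and Benjamini-Hochberg adjustment ran over 27342 clusters within each contrast. The threshold was 0.05, and 2-fold was counted besides. No cluster was filtered. Of the clusters 15068 have a single symbol, 323 several and 11951 none in the annotation used, and the brightest per gene was taken. All 86 members matched RefSeq by gene ID. Promoter windows are those of RefSeq on GRCr8. The number of arrays limits the precision, and p measures the spread between samples dissected by hand, some pooled. A layer beneath SZ was discarded at dissection.

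The members follow from a rule on gene symbols, and the rule, gene lists and tests were chosen with earlier results of these data known. The lists are 6 around the carriers and 12 of cell type markers, of which 22 entries had no cluster of a single symbol. Named are all members called in any comparison and a set of well-known carriers, up to 4 genes per list by difference, and the brightest markers. Some further list genes and markers are given beside them. Marker sums are of values returned to the linear scale.

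The labels give equally numbered IDZ and RZ samples the same animals. For numbers 1 to 4 the deviations of such samples from their zone mean had correlations of 0.02, 0.02, 0.03 and 0.21, with a consensus correlation of -0.14 within animal pairs, and fits with the pair as a fixed or random block were alternatives. Others were plain one-way contrasts, trended or robust variances, 2 zones alone, a test against 2-fold, 3 other scalings, no dim clusters, clusters not merged by gene, single arrays left out and, added after the data were seen, counts without Slc7a6os. All SZ samples are of the animal pairs of numbers 3 and 4. With the fixed block, IDZ and RZ replicates 1 and 2 therefore add little to the comparisons with SZ. Tests were tested on simulated data. Figures used Python 3.11.15, pandas 2.3.3 and matplotlib 3.10.9.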

Additional observations from a re-analysis of the deposited data

Results flagged for a closer look

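Of 120 groups of 4 arrays (40 named genes in 3 zones), 2 held an array far from its group by Dixon's ratio above its 95% critical value, and chance gives about 1 in 20 groups. Slc1a5 in RZ replicate 4 was 7.67, against 8.00 to 8.05 on the other RZ arrays (ratio 0.88). Slc38a3 in IDZ replicate 1 was 10.02, against 10.14 to 10.16 on the other IDZ arrays (ratio 0.831).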

How the results depend on the processing

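Of 57 calls of a member in a comparison, 37 stayed in every alternative but the test against 2-fold, 20 were lost in at least 1, and 0 reversed direction. Required to differ by 2-fold, the counts were 3 higher in SZ and 2 in IDZ, 0 between IDZ and RZ in either direction, and 1 higher in SZ and 4 in RZ. Tested against 2-fold, they were 0, 0, 0, 0, 0 and 1 in that order. Between IDZ and RZ the count higher in IDZ, 2, became 0 with plain one-way contrasts, 5 with these zones fitted alone, 0 with a fixed replicate block by animal pair, 1 with a random one, 0 after median centring and 5 after a further quantile normalization, and that higher in RZ, 9, became 5 with plain contrasts and 15 with the zones alone. Plain contrasts also ended 3 calls in the other comparisons, given with the genes or, for Slc16a7 between SZ and IDZ, at adjusted p = 0.11. The block changed no call of a member other than those given with the genes above. Of the lists, only the amino acid response genes between IDZ and RZ moved with the scaling, from 2 to 1 after median centring. The causes were not tested.

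Leaving out 1 array at a time gave 12 to 22 genes higher in SZ and 9 to 17 in IDZ, 0 to 3 higher in IDZ and 6 to 13 in RZ, and 8 to 16 higher in SZ and 10 to 16 in RZ, the highest without SZ replicate 4 in all but the count higher in IDZ than in RZ. The lists' counts for SZ and IDZ, IDZ and RZ, and SZ and RZ were 1 to 2, 0 to 1 and 2 to 2 for the chaperones, 12 to 14, 1 to 2 and 12 to 14 for glycolysis, 6 to 10, 1 to 3 and 5 to 8 for the amino acid response, 4 to 7, 1 to 3 and 2 to 3 for glutamine and glutathione, 3 to 4, 0 to 1 and 2 to 2 for tonicity, and 2 to 8, 0 to 2 and 5 to 8 for sensing to mTORC1. Without SZ replicate 4 the share of all clusters called rose too. Called were 18.1% as higher in SZ and 23.5% as higher in IDZ, 5.75% and 8.61% as higher in IDZ and RZ, and 13.5% and 15.3% as higher in SZ and RZ. Other scalings moved the median of all clusters by at most 0.06. The number of arrays and the spread of SZ limit small differences there.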
